A study of Mus musculus with 9 samples.

Results

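The genes described here are the mouse matrix metalloproteinases (MMPs), the ADAM and ADAMTS proteinases, and the tissue inhibitors of metalloproteinases (TIMPs). They were chosen by symbol: every protein-coding gene of the GENCODE M21 annotation named Mmp, Adam, Adamts or Timp with a number. The rule found 78 genes among the 55536 in the count files, of which 22028 are protein-coding: 22 MMP, 33 ADAM, 19 ADAMTS and 4 TIMP genes. Mmp1a, which the annotation lists as a polymorphic pseudogene, was left out by the biotype. The symbol rule used no measured value, and the families were picked for study with earlier results of these data known.

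RNA was sequenced in bulk from quadriceps of C57BL/6 mice, 6 weeks old by the labels, in which a block of muscle had been removed surgically (volumetric muscle loss). The 9 libraries fall into 4 labelled wild type and 5 labelled Il17ra-/-, a knockout of a receptor subunit for interleukin-17 cytokines, and the genotype label is all that separates the groups. All 9 libraries carry the same pair of conflicting descriptions: the characteristics give saline and a harvest 1 week after surgery, and the extraction text gives PCL and a collection 6 weeks after it. The design text speaks of 3 animals per genotype, no label links a library to an animal, a litter or a run, and the allele's deleted exons are not given, so the p-values measure the spread between these libraries only.

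MMPs are zinc-dependent enzymes that cut collagens and other matrix proteins outside the cell or, for the membrane-type members, at its surface. Many ADAMs release the outer parts of membrane proteins such as cytokines, growth factors and Notch, while the ADAMTS enzymes process procollagens and cut large proteoglycans of the matrix. TIMPs bind the active sites of these enzymes and block them, and injured muscle is a tissue in which this system takes part in clearing and rebuilding matrix.

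The libraries held 31294089 to 46435401 counts, so that 3 counts equal 0.0638 to 0.0984 CPM (counts per mega counts, scaled with TMM factors). Il17ra itself stood at 96.8 ± 19.7 CPM (SD, n = 4) under the wild type label and at 208 ± 43.2 CPM (SD, n = 5) under the Il17ra-/- label, a log2 fold change of 1.11 (SE 0.17, edgeR adjusted p = 0.00208). The count over all exons of the targeted gene was thus higher under the knockout label. Whether the labels are swapped or the allele leaves a counted transcript was not tested. Every direction below is between libraries as labelled. On the first principal component, with 34.3% of the variance, wild type replicate 2 lay at 139 and the other libraries between -30.7 and 0.26. On the second, with 17.4%, Il17ra-/- replicate 1 lay at 89.1 and the others between -33.1 and 16.0. Wild type replicate 2 also had the smallest total (31294089 counts) and the fewest genes with a count (17256). Il17ra-/- replicate 1 had 18248 such genes, and the remaining libraries 19258 to 20945. Marker genes of muscle fibres were all detected and summed to 1255 to 3218 CPM under the wild type label and 3700 to 4887 CPM under the Il17ra-/- label, beside 80162 to 90250 and 73922 to 95110 CPM for fibroblast markers. Macrophage markers summed to 24.4 to 40.4 and 10.2 to 19.6 CPM, and neutrophil markers to 0.13 to 0.83 and 0.05 to 0.61 CPM, with Csf3r, Elane, Ngp and Camp at 0 in every library.

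Of the 78 members, 48 had enough counts to be tested: 12 MMP, 14 ADAM, 18 ADAMTS and all 4 TIMP genes. Only 1 of the 48, Timp4, passed the test (2.08%; Benjamini-Hochberg adjusted p under 0.05 over 16039 genes, edgeR quasi-likelihood), and it was higher in the libraries labelled Il17ra-/-. Over all genes tested, 3.06% passed, 1.35% higher and 1.71% lower. DESeq2 called 6 of the 48 members (12.5%, beside 6.96% of all genes), and limma voom called 0 (3.11% of all genes). Without the low-count filter 57 members were tested, and edgeR called 3 of them (5.26%, beside 2.23% of all genes). An unadjusted p under 0.05 was reached by 15 members (31.2% of those tested, beside 16.4% of all genes), with 6 fold changes positive and 9 negative. The 2 groups were fully separate for 5 of the 48 members (10.4%), beside 9.18% of all genes (4.63% higher and 4.56% lower): Timp4 and Adamts19 were higher, and Mmp2, Adam8 and Adam4 lower, in every library labelled Il17ra-/-.

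Most members differed little between the labels. The fitted log2 fold change, libraries labelled Il17ra-/- minus wild type, was positive for 21 members and negative for 27, with a median of -0.05 (all genes -0.0027). Scaling by library totals alone moved the members' median to 0.0164 and that of all genes to 0.0615, so the members stayed below all genes with that scaling. Without wild type replicate 1 the order turned, at 0.0247 for the members and 0.00897 for all genes. For 36 of the 48 (75.0%) it lay within 0.5 of 0, the same as for 76.0% of all genes. In bulk tissue, fewer cells of a type and less RNA per cell cannot be told apart, which holds for every difference here.

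**Figure D1:**
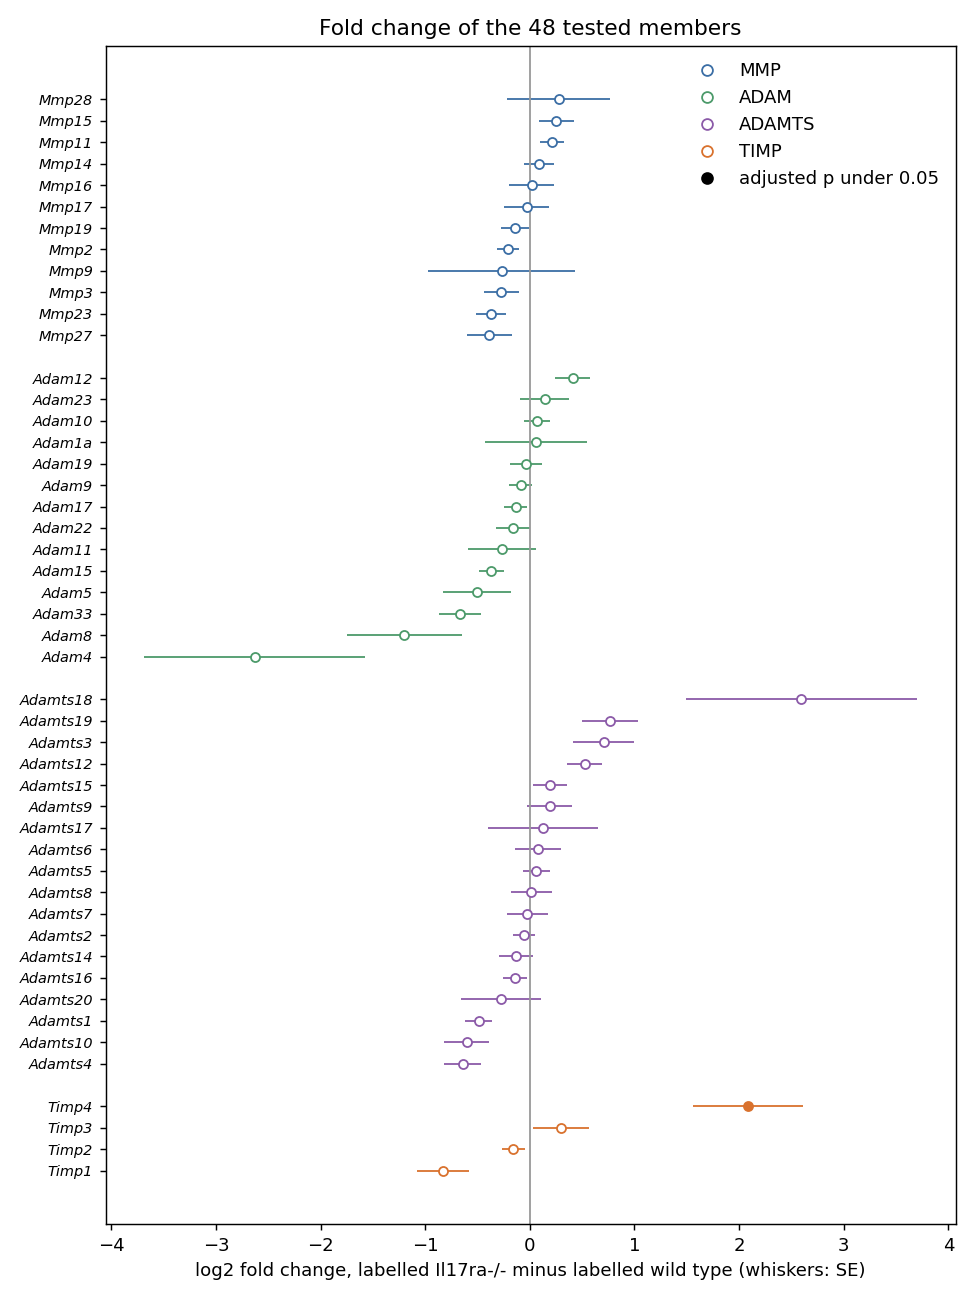
Log2 fold change of each of the 48 tested members (horizontal axis, libraries labelled Il17ra-/- minus wild type, with its SE as the bar), by family. Timp4, at 2.09, is the member called at an adjusted p under 0.05, and 36 of the 48 lie within 0.5 of 0.

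Compared per length, as CPM per kilobase of exon (FPKM), the families were dominated by a few genes. Timp2 had the highest level at 1125 FPKM over the 9 libraries (range 1013 to 1403), and Mmp2 the second at 739 (563 to 826). The ranges of these 2 genes did not overlap. Mmp3 followed at 139 FPKM (104 to 183), Mmp14 at 129 (93.1 to 145), Adamts1 at 123 (92.3 to 172) and Timp3 at 103 (40.7 to 146). The ranges of these 4 genes overlapped, so that their order is within the spread between libraries. Adamts2 at 65.7 FPKM, Adamts5 at 52.7, Adam9 at 47.1, Mmp23 at 43.9 and Timp1 at 31.6 came next. The ADAM genes held a small part of the summed level of the 78 members, 5.75% on average, with 11.4% for the ADAMTS genes, 38.6% for the MMPs and 44.3% for the TIMPs.

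**Figure D2:**
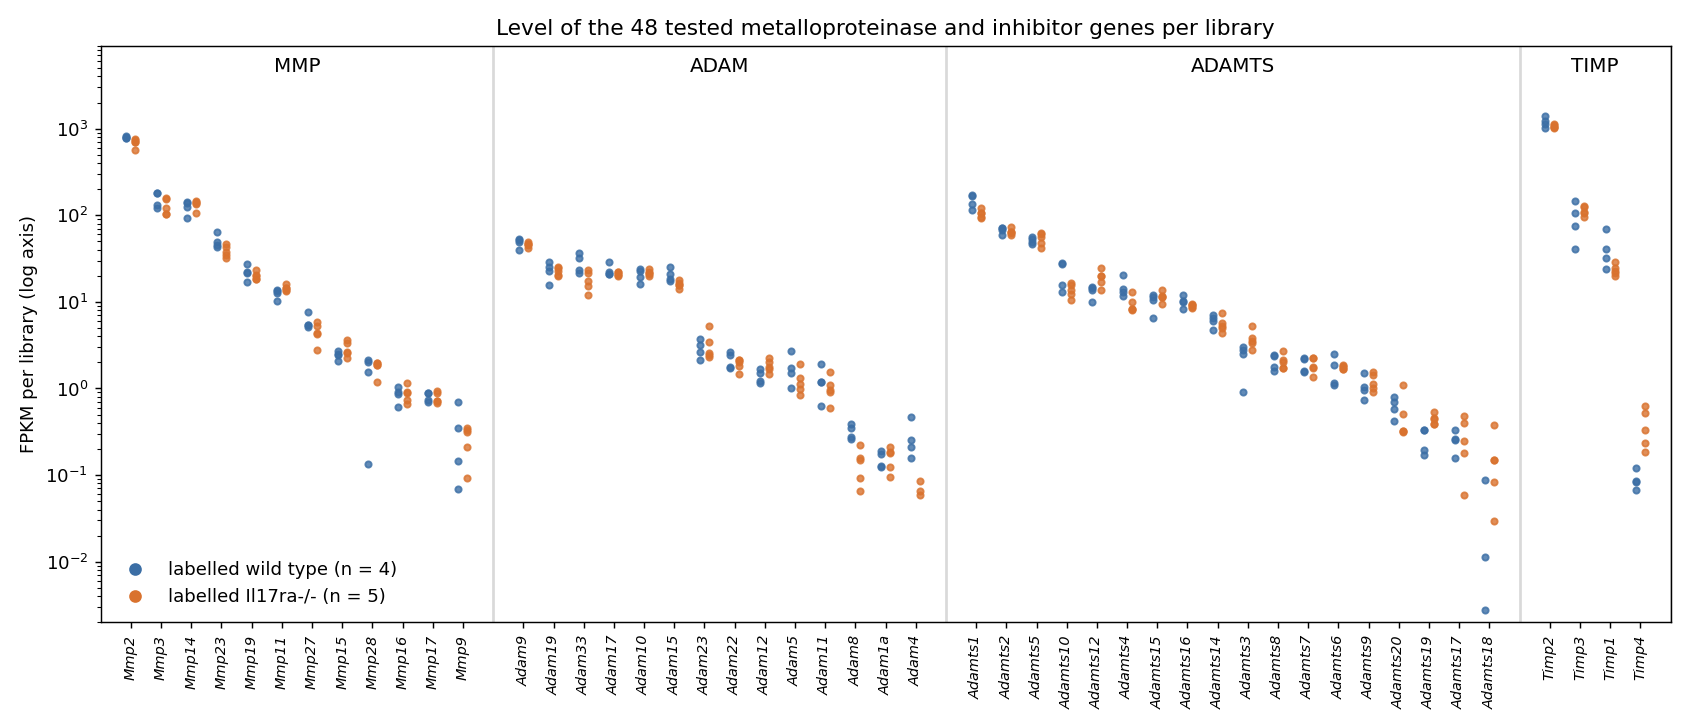
Level of each tested member in FPKM (log axis) in every library, by family, with the libraries labelled wild type and Il17ra-/- in separate colours. Timp2 and Mmp2 stand above all other members, and the colours overlap for most genes. Values of 0 (Adam4 in 2 libraries labelled Il17ra-/-, Adamts18 in 1 labelled wild type) cannot be drawn on a log axis.

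The summed MMP level was 1173 ± 39.8 FPKM (SD, n = 4) under the wild type label and 1036 ± 113 FPKM (SD, n = 5) under the Il17ra-/- label. The TIMP sum was 1326 ± 192 and 1207 ± 43.6 FPKM in the same order. The ratio of the TIMP sum to the sum of the MMP, ADAM and ADAMTS genes was 0.781 ± 0.117 and 0.813 ± 0.0788. Its range over the 9 libraries, 0.648 to 0.932, is set at both ends by libraries labelled wild type, so the groups overlapped fully. This ratio compares RNA levels per length, not amounts of enzyme and inhibitor.

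Among the MMPs, 0 of 12 passed the test with edgeR, DESeq2 or limma voom (3.06%, 6.96% and 3.11% of all genes). An unadjusted p under 0.05 was reached by 1 (Mmp23; 8.33%), beside 16.4% of all genes. All 12 fold changes lay between -0.39 and 0.28 on the log2 scale, with a median of -0.09, 5 positive and 7 negative. The MMP genes are described by substrate class: collagenases, gelatinases, stromelysins and membrane-type enzymes.

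No collagenase could be tested. Mmp8, the neutrophil collagenase, and Mmp1b had 0 counts in every library, which allows up to 3 counts or 0.0638 to 0.0984 CPM. Mmp13 had 9 and 4 counts in wild type replicates 1 and 3, 9 in Il17ra-/- replicate 5 and 0 in the other libraries. The macrophage elastase Mmp12 had 11, 2 and 5 counts in Il17ra-/- replicates 2, 3 and 5 and 0 in all 4 libraries labelled wild type. These counts are near the floor, and no fold change is given for them.

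Mmp2 (gelatinase A, which cuts denatured collagen and basement membrane collagen) made up 65.0% to 69.1% of the summed MMP level. It stood at 2713, 2785, 2633 and 2629 CPM under the wild type label and at 2357, 2482, 2339, 1900 and 2577 CPM under the Il17ra-/- label. The lowest wild type value lay just above the highest of the other group, so the groups did not overlap, yet the log2 fold change of -0.21 (SE 0.11) did not pass the test (edgeR adjusted p = 0.353). Mmp9 (gelatinase B, made largely by leukocytes) stood at 1.11 ± 0.989 CPM (SD, n = 4) and 0.920 ± 0.380 CPM (SD, n = 5), with a spread between wild type libraries almost as large as its mean.

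Mmp3 (stromelysin-1, which cuts proteoglycans and activates other MMPs) stood at 325, 329, 219 and 236 CPM under the wild type label and at 275, 281, 188, 186 and 216 CPM under the Il17ra-/- label. Both groups held high and low libraries and overlapped (log2 fold change -0.27, SE 0.17, edgeR adjusted p = 0.443). Mmp14, the membrane-type enzyme that activates pro-MMP2 together with TIMP2, stood at 738, 555, 854 and 831 CPM and at 850, 864, 818, 629 and 798 CPM. The lowest value in each group came from 1 library, wild type replicate 2 and Il17ra-/- replicate 4. Its log2 fold change was 0.09 (SE 0.14, edgeR adjusted p = 0.801) with all libraries and -0.0265 without wild type replicate 2, so no direction can be given.

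Mmp23, a membrane-anchored MMP of unusual domain structure, had the smallest p of the family. It stood at 115, 149, 100 and 105 CPM under the wild type label and at 74.2, 108, 81.8, 89.0 and 102 CPM under the Il17ra-/- label. The groups overlapped between 100 and 108 CPM, and the log2 fold change was -0.37 (SE 0.14, edgeR adjusted p = 0.212). Of the other members, Mmp28 was chosen after its values were seen: wild type replicate 2 held 0.525 CPM, and the other 8 libraries 4.64 to 8.16.

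Of the 15 members with an unadjusted p under 0.05, 7 were ADAMTS genes. None of the 18 passed with edgeR or limma voom, 3 passed with DESeq2 (Adamts1, Adamts4 and Adamts12; 6.96% of all genes passed with it), and the 7 with an unadjusted p under 0.05 were 38.9%, beside 16.4% of all genes. Their fold changes ran from -0.64 to 2.59 on the log2 scale, 10 positive and 8 negative, with a median of 0.04. All 7 genes of the proteoglycanase group and all 3 procollagen N-propeptidases were tested.

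Adamts1 cuts the proteoglycans aggrecan and versican and has the highest level of the family. It stood at 707, 617, 878 and 912 CPM under the wild type label and at 489, 565, 561, 510 and 648 CPM under the Il17ra-/- label. Wild type replicate 2, the lowest of its group, lay below Il17ra-/- replicate 5, the highest of the other, and no other pair overlapped. The log2 fold change was -0.49 (SE 0.13, edgeR adjusted p = 0.0677), and without wild type replicate 2 it was -0.58 with an adjusted p of 0.0103, which passes. Without any other 1 library it was -0.55 to -0.40 with an adjusted p of 0.0665 to 0.182. DESeq2 gave an adjusted p of 0.0103 with all libraries. The share of Adamts1 in the summed ADAMTS level was 41.7% ± 3.47 (SD, n = 4) and 34.5% ± 3.05 (SD, n = 5).

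Adamts4, another aggrecan-cutting enzyme, stood at 98.9, 61.9, 56.4 and 67.4 CPM under the wild type label and at 40.2, 39.4, 39.0, 47.6 and 61.9 CPM under the Il17ra-/- label. Wild type replicate 1 was high in its group and Il17ra-/- replicate 5 high in the other, and the latter reached into the wild type range. The fitted log2 difference was -0.64 (SE 0.18, edgeR adjusted p = 0.0766), and -0.77 with an adjusted p of 0.0342 without Il17ra-/- replicate 5. Without wild type replicate 1 it was -0.44 with an adjusted p of 0.196, and without any other 1 library the adjusted p was 0.0522 to 0.186. Adamts5, the third well-known aggrecanase, stood at 555 ± 42.8 CPM (SD, n = 4) and 579 ± 95.5 CPM (SD, n = 5), a log2 fold change of 0.06 (SE 0.13, edgeR adjusted p = 0.857). The sign of that small difference turned when wild type replicate 2 and Il17ra-/- replicate 1 were both left out (-0.0202).

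Adamts2, which removes the N-propeptide of fibrillar procollagens, stood at 626 ± 54.2 CPM (SD, n = 4) and 603 ± 46.3 CPM (SD, n = 5). The log2 fold change of -0.05 (SE 0.10, edgeR adjusted p = 0.844) was within the spread and became 0.0087 with library totals as the only scaling. Its relative Adamts3 stood at 12.6 ± 5.21 and 20.5 ± 5.10 CPM, with 4.92 CPM in wild type replicate 2 (log2 fold change 0.70, edgeR adjusted p = 0.239).

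Adamts12, which cuts cartilage oligomeric matrix protein, was on the higher side in the libraries labelled Il17ra-/-. It stood at 156, 109, 161 and 152 CPM and at 269, 215, 217, 149 and 187 CPM. Il17ra-/- replicate 4 fell inside the wild type range, and the other 4 libraries lay above it. On the log2 scale the difference was 0.52 (SE 0.16, edgeR adjusted p = 0.121), with a DESeq2 adjusted p of 0.0373. Without wild type replicate 2 it was 0.41.

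Adamts19 stood at 4.71, 2.39, 4.70 and 2.73 CPM under the wild type label and at 5.42, 6.47, 5.39, 6.21 and 7.43 CPM under the Il17ra-/- label. The groups did not overlap, which is the most extreme order of 9 libraries (exact permutation test, two-sided, p = 0.00794, the smallest that all splits of 9 libraries can give). The log2 fold change of 0.77 (SE 0.26) did not pass over all genes (edgeR adjusted p = 0.160). Adamts10, which takes part in fibrillin microfibril assembly, stood at 229, 128, 224 and 107 CPM and at 87.8, 136, 102, 112 and 128 CPM. Wild type replicates 1 and 3 were about alike and high, and replicates 2 and 4 lay inside the range of the other group (log2 fold change -0.60, SE 0.21, edgeR adjusted p = 0.170). The largest positive log2 fold change of the 48 tested members, 2.59, belonged to Adamts18, which was chosen after its values were seen. It stood at 0.904, 0, 0.0280 and 0.115 CPM and at 0.840, 1.51, 0.302, 1.52 and 3.89 CPM, and its adjusted p was 0.257 with all libraries. Without wild type replicate 1 the log2 fold change was 4.97 with an adjusted p of 0.0438.

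The 14 tested ADAM genes were 8 widely expressed genes with a catalytic zinc site, 3 without one that are known from the nervous system (Adam11, Adam22 and Adam23), and 3 others (Adam1a, Adam4 and Adam5). Of all 33 genes, 16 had 0 counts in every library, among them Adam28 and 15 genes of the group known mainly from testis and epididymis, and another 3 had too few counts to test. None of the 14 tested genes passed with edgeR or limma voom, and 1 (Adam33) passed with DESeq2, beside 6.96% of all genes. An unadjusted p under 0.05 was reached by 5 (35.7%), beside 16.4% of all genes. Their log2 fold changes ran from -2.63 to 0.41 with a median of -0.15, 4 positive and 10 negative.

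Adam9, a widely expressed sheddase, had the highest ADAM level. It stood at 204, 162, 215 and 220 CPM under the wild type label and at 190, 174, 199, 184 and 194 CPM under the Il17ra-/- label. The second group lay wholly inside the range of the first (log2 fold change -0.09, SE 0.11, edgeR adjusted p = 0.742). Adam19, which can shed neuregulin, stood at 164 ± 40.2 CPM (SD, n = 4) and 160 ± 15.8 CPM (SD, n = 5), a difference of -0.04 (SE 0.15, edgeR adjusted p = 0.930) whose sign turned under 5 alternatives. Adam17, the main sheddase of tumour necrosis factor, and Adam10, the main sheddase that starts Notch cleavage, had mean levels of 22.03 and 21.2 FPKM, close to Adam19 at 22.8.

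Adam33, a metalloproteinase of mesenchymal cells, stood between 115 and 199 CPM under the wild type label (153 ± 39.3, SD, n = 4) and at 64.1, 115, 82.2, 94.9 and 125 CPM under the Il17ra-/- label. Il17ra-/- replicates 2 and 5 lay above the lowest wild type library, replicate 4, and below the others of that label. The other 3 libraries labelled Il17ra-/- lay below all those labelled wild type. The log2 fold change was -0.67 (SE 0.20, edgeR adjusted p = 0.0987; DESeq2 adjusted p = 0.0255). Adam15, which carries an integrin-binding motif, stood at 113, 155, 129 and 107 CPM and at 109, 96.2, 100, 86.7 and 96.9 CPM. Il17ra-/- replicate 1 lay just above the lowest wild type library, and the groups otherwise did not overlap (log2 fold change -0.37, SE 0.12, edgeR adjusted p = 0.137). Exons of Adam15 share 20.6% of their bases with the opposite-strand gene 4731419I09Rik, to which 0.243 CPM were counted.

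**Figure D3:**
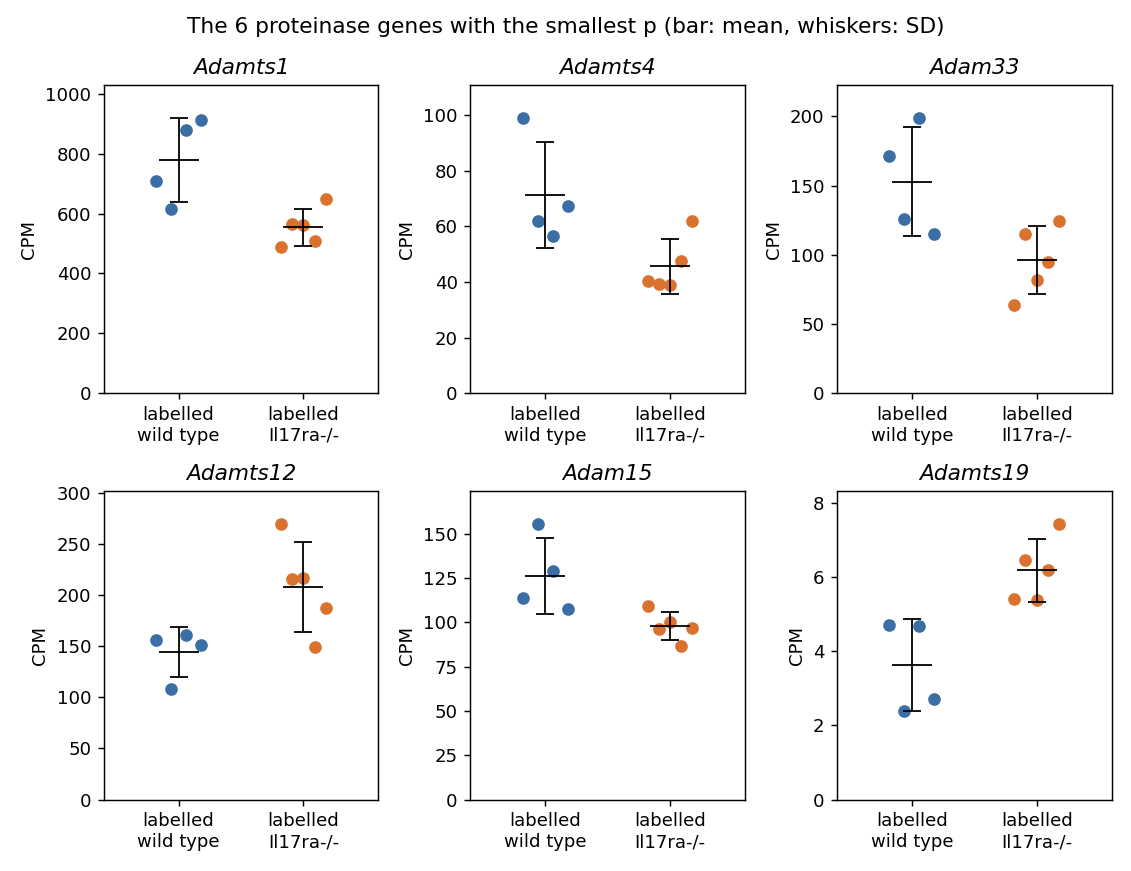
Library-scaled counts (CPM, linear axis from 0) of the 6 proteinase genes with the smallest p, Adamts1, Adamts4, Adam33, Adamts12, Adam15 and Adamts19, with a point per library, a bar for the group mean and whiskers for the SD. The points of Adamts19 do not overlap between the labels, and those of the other 5 genes do in at least 1 library.

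A pair of ADAM genes with non-overlapping groups was chosen after the values were seen. Adam8, a proteinase of leukocytes and activated macrophages, stood at 1.21, 1.61, 1.82 and 1.26 CPM under the wild type label and at 0.305, 0.723, 0.690, 0.434 and 1.04 CPM under the Il17ra-/- label. These values rest on 12 to 65 counts a library, and the log2 fold change of -1.20 (SE 0.55) did not pass (edgeR adjusted p = 0.297). The summed level of 10 macrophage markers was also lower, at 24.4 to 40.4 and 10.2 to 19.6 CPM. Of the 9 tested, 1 (Cd68) was called lower, but 5 fold changes were positive and 4 negative, with a median of 0.75, and no marker was at 0 in every library. The leukocyte gene Ptprc did not exceed 0.461 CPM in any library, and the part of these cells in the Adam8 values was not tested. Adam4 stood at 1.18, 0.525, 0.391 and 0.631 CPM and at 0, 0.149, 0.216, 0 and 0.165 CPM (edgeR adjusted p = 0.228), from at most 43 counts.

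The 4 TIMP genes differed from each other far more in level than between the labels, with Timp2 at 87.1% to 91.1% of the summed TIMP level. Of the 4, 1 passed the test with edgeR (Timp4), 2 with DESeq2 (Timp1 and Timp4) and 0 with limma voom. Over all genes, 3.06%, 6.96% and 3.11% passed in that order. The log2 fold change was negative for Timp1 and positive for Timp4, each at an unadjusted p under 0.05. Timp1, Timp3 and Timp4 lie within synapsin genes on the opposite strand (Syn1, Syn3 and Syn2 in that order).

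Timp4 (chr6:115241892-115252205, minus strand, GRCm38), known as a TIMP of heart, muscle and fat, is a low-level gene here at 0.251 FPKM. It stood at 0.712, 0.394, 0.503 and 0.488 CPM under the wild type label and at 3.74, 1.96, 1.38, 3.06 and 1.09 CPM under the Il17ra-/- label. Every library of the second group lay above every library of the first, and the values within the second group spread widely. The means were 0.524 ± 0.134 CPM (SD, n = 4) and 2.25 ± 1.13 CPM (SD, n = 5), from 12 to 147 counts a library. The fitted log2 difference was 2.09 (SE 0.52, edgeR adjusted p = 0.0488; exact permutation test, two-sided, p = 0.0159). The difference held its direction under all 18 alternatives (1.72 to 2.28) but lost the call under 12 of them, among these leaving out any 1 library other than Il17ra-/- replicate 5 (adjusted p 0.0617 to 0.139), limma voom (0.177) and leaving out both libraries that stand apart (0.118). DESeq2 gave 0.000641. The exons of Timp4 and Syn2 share 90 bases, and Syn2 stood at 2.00 CPM on average with a log2 fold change of -0.69 (edgeR adjusted p = 0.597). Wild type replicate 2 held 6.59 CPM of Syn2 and the other libraries 0.979 to 2.21 CPM. The Syn2 median was 1.23 CPM under the wild type label and 1.67 CPM under the Il17ra-/- label.

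Muscle fibre markers summed higher under the same label as Timp4, and fat cell markers had positive fold changes with sums that overlapped between the labels. Of 14 muscle fibre markers, 7 were called higher under the Il17ra-/- label and 0 lower (1.35% and 1.71% of all genes), and their sum was 3218, 2545, 2387 and 1255 CPM under the wild type label and 3700, 4139, 4887, 4662 and 4032 CPM in the others. Of 8 fat cell markers, 1 (Adipoq) was called higher, all 8 fold changes were positive, and the sum was 73.6, 78.9, 61.9 and 35.8 CPM and 134, 181, 61.7, 119 and 45.9 CPM. Within the Il17ra-/- label the fibre sum did not follow Timp4, as replicate 1 held the highest Timp4 (3.74 CPM) and the lowest fibre sum (3700 CPM). Timp4 and the fat cell sum were both higher in replicates 1, 2 and 4 of that label than in replicates 3 and 5. Pericyte and smooth muscle markers had 6 of 8 called higher, with sums of 1154 to 1445 and 1934 to 2626 CPM. Satellite cell markers had 2 of 6 called higher (Pax7 and Cdh15), all 6 positive, with sums of 182 to 272 and 283 to 401 CPM. Schwann cell markers summed the other way, at 827 to 1063 and 597 to 714 CPM, with 1 of 7 called lower (Pmp22), 2 fold changes positive and 5 negative. No marker of these 5 lists was at 0 in every library, and the part of these cells in the Timp4 values was not tested.

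**Figure D4:**
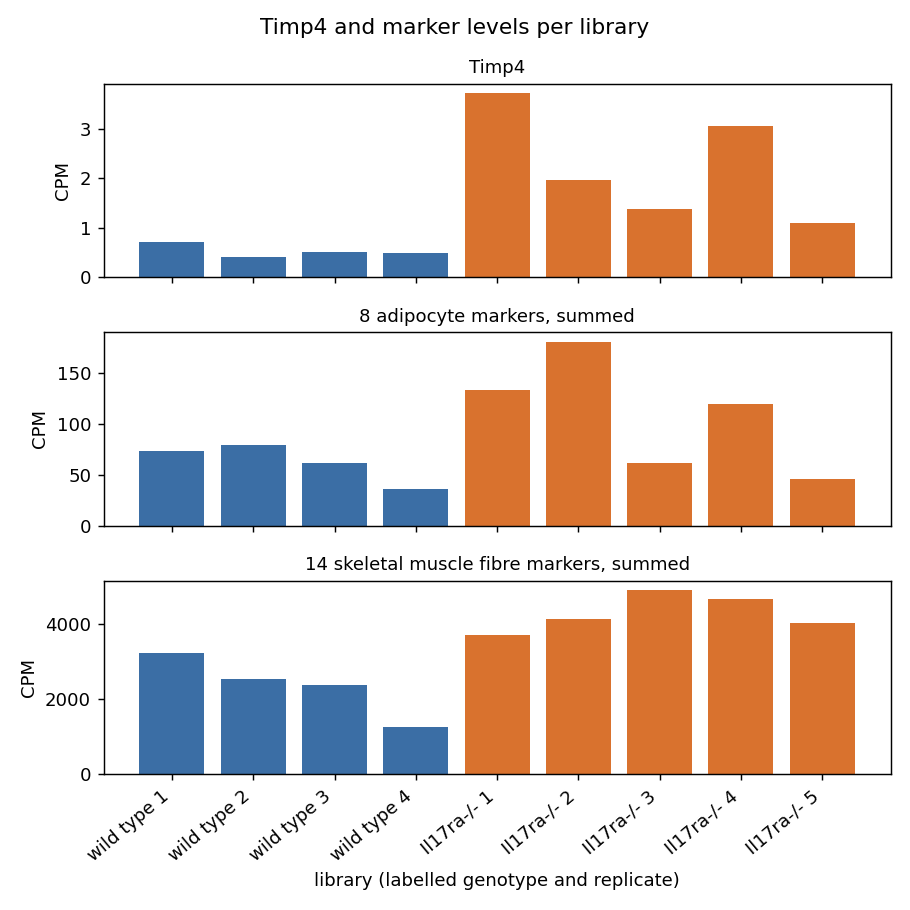
Bars for each library (CPM, axes from 0) of Timp4, of 8 fat cell markers summed and of 14 muscle fibre markers summed, coloured by label. The 5 libraries labelled Il17ra-/- stand at 1.09 to 3.74 CPM of Timp4 and at 3700 to 4887 CPM of fibre markers, above all 4 labelled wild type, while the fat cell sums of the labels overlap. Within the Il17ra-/- label, replicate 1 has the highest Timp4 and the lowest fibre sum.

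Timp1 (chrX:20870166-20874735, plus strand), the TIMP that inflammatory signals and injury commonly raise, stood at 36.5, 62.3, 21.2 and 28.1 CPM under the wild type label and at 17.8, 21.8, 20.1, 19.1 and 25.3 CPM under the Il17ra-/- label. Wild type replicate 2 was the highest by far and replicate 3 lay inside the range of the other group, which was narrow. On the log2 scale the difference was -0.83 (SE 0.25, edgeR adjusted p = 0.0954), and it was -0.46 (adjusted p = 0.183) without wild type replicate 2 and -1.02 (adjusted p = 0.0290) without wild type replicate 3.

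Timp2 (chr11:118301069-118355740, minus strand), which also serves in the activation of pro-MMP2, stood at 3947, 4421, 4750 and 5465 CPM and at 4064, 4333, 4375, 3988 and 4087 CPM. The groups overlapped, with the widest spread among the libraries labelled wild type (log2 fold change -0.16, SE 0.11, edgeR adjusted p = 0.509). Timp3 (chr10:86300372-86349506, plus strand), the TIMP that binds to matrix and also blocks ADAM17, stood at 614, 331, 858 and 1188 CPM and at 889, 773, 1025, 1054 and 853 CPM. The libraries labelled wild type enclosed the whole range of the others (log2 fold change 0.30, SE 0.26, edgeR adjusted p = 0.624). Its size turned on single libraries, with 0.0544 without wild type replicate 2 and 0.62 without wild type replicate 4, neither of which passed. Of the exon bases of Timp3, 21.3% overlap Syn3, which was counted at 0.838 CPM.

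**Figure D5:**
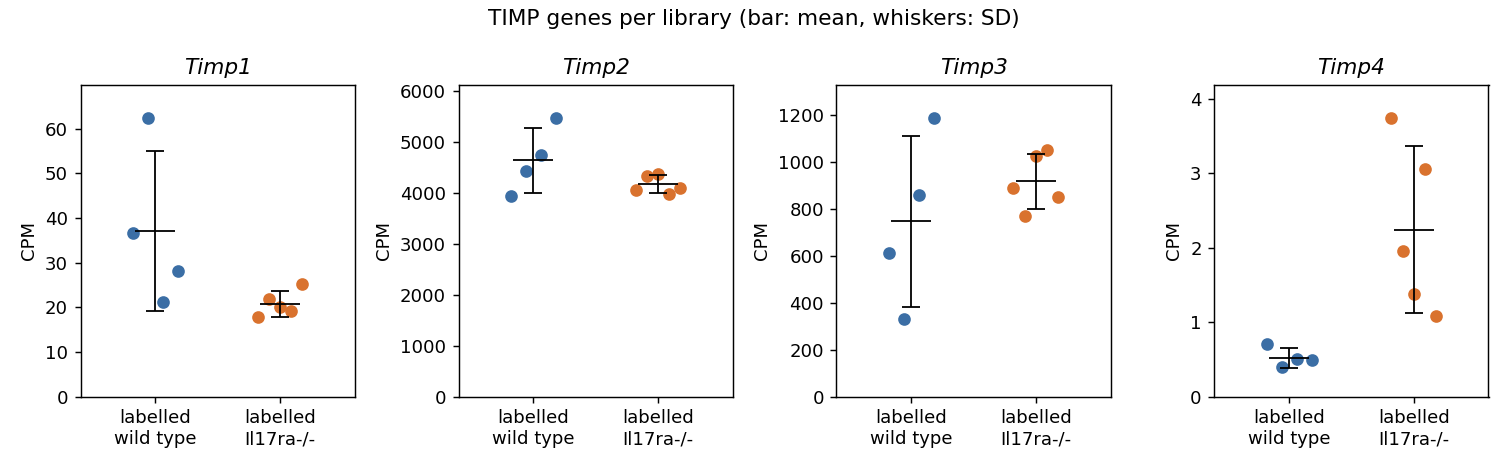
Library-scaled counts (CPM) of Timp1, Timp2, Timp3 and Timp4, each on its own linear axis from 0, with a point per library and the group mean and SD. The groups separate for Timp4 alone, and wild type replicate 2 is the highest library for Timp1 and the lowest for Timp3.

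The 250 bases before the RefSeq start sites (GRCm38.p6) of the TIMP genes with small p-values are shown because their differences run in opposite directions. The Timp4 window is chr6:115252206-115252455 (minus strand) and the Timp1 window chrX:20869916-20870165 (plus strand), both written 5′ to 3′ along the gene, and the capitals mark motif matches.
Timp4: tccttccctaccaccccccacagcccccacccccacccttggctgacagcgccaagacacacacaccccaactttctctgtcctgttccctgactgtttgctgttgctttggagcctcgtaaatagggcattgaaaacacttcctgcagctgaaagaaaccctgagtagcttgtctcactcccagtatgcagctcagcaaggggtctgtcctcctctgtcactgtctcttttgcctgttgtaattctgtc
Timp1: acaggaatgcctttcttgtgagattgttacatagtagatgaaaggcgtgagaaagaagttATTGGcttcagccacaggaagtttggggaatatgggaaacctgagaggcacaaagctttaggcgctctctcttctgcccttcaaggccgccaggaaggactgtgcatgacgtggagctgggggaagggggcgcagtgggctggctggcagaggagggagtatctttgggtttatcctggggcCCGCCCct
Searched on both strands were the AP-1 site TGANTCA, the GC box GGGCGG, the TATA box TATAAA and the CCAAT box CCAAT. The Timp4 window held 0 matches, and its GC content was 53.6%. The Timp1 window, at 54.4% GC, held 1 CCAAT box and 1 GC box, both on the other strand, and no AP-1 or TATA letters. Among 32851 windows of 250 bases before RefSeq starts, 33.8% held a CCAAT box, 32.7% a GC box, 12.4% a TATA box and 6.75% an AP-1 site. A match describes letters only, and no match here says nothing of any factor.

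Other genes of the system were taken from 7 lists. Their edgeR calls stand beside 1.35% of all genes called higher and 1.71% called lower. Of 12 tested inhibitors and surface regulators of metalloproteinases, 1 passed and was lower. This was Tfpi2, a secreted proteinase inhibitor. It stood at 25.0, 56.5, 22.5 and 21.6 CPM under the wild type label and at 17.3, 16.0, 11.6, 15.9 and 12.5 CPM in the others. The groups did not overlap (log2 fold change -1.10, SE 0.26, edgeR adjusted p = 0.0352). Without wild type replicate 2 the difference was -0.65 (adjusted p = 0.0264), and the call was lost without any 1 library labelled Il17ra-/- (0.0630 to 0.101), with limma voom (0.0519) and with a replicate block (0.0785). Of 11 tested activators of the proteinases, 0 passed with edgeR, DESeq2 or limma voom, and 2 had an unadjusted p under 0.05 (Htra1 at -0.37 and Ctsb at -0.25). Their median was -0.23, with 10 of 11 negative.

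Of 13 tested ADAMTS-like proteins and other metzincins, 1 passed and was lower. This was Adamtsl2, an ADAMTS-like matrix protein that binds fibrillin and lacks a proteinase domain. It stood at 58.5, 60.0, 64.1 and 49.6 CPM under the wild type label and at 39.8, 22.2, 28.0, 26.2 and 24.9 CPM in the others. The groups did not overlap, and the log2 fold change of -1.04 (SE 0.16, edgeR adjusted p = 0.00214) passed under all 18 alternatives. Of 19 tested matrix substrates, 1 passed and was higher: Fbn2, a fibrillin, at 20.04 ± 6.24 CPM (SD, n = 4) and 37.3 ± 6.12 CPM (SD, n = 5), with a log2 fold change of 0.90 (SE 0.20, edgeR adjusted p = 0.0232). That call was lost under 8 alternatives, among them leaving out wild type replicate 3 or 4 or Il17ra-/- replicate 1, 2, 3 or 5 (adjusted p 0.0563 to 0.0731).

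The partners of ADAM17 and ADAM10 (iRhoms and tetraspanins) had 0 of 10 called with edgeR, 2 with an unadjusted p under 0.05, 1 with DESeq2 and 0 with limma voom. The nearest was Tspan15, a tetraspanin partner of ADAM10 (log2 fold change 0.80, edgeR adjusted p = 0.0947). Of 20 ligands and receptors that ADAMs release, edgeR called 1 higher and 1 lower, beside 1.35% and 1.71% of all genes. DESeq2 called 5 of the 20 (6.96% of all genes) and limma voom 2 (3.11% of all genes). Hbegf, an epidermal growth factor receptor ligand shed by ADAM17, stood at 28.1 to 36.0 CPM under the wild type label and at 8.15 to 12.9 CPM under the Il17ra-/- label. Its groups lay far apart (log2 fold change -1.50, SE 0.15, edgeR adjusted p = 0.000163). Notch1, a receptor cut by ADAM10, stood at 24.7, 8.56, 22.6 and 18.9 CPM and at 61.1, 39.2, 46.1, 46.04 and 41.7 CPM (log2 fold change 1.32, SE 0.25, edgeR adjusted p = 0.00951). Both calls held under all 18 alternatives.

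Of 18 tested transcription factors that are known to act on metalloproteinase genes, 1 was called higher and 5 lower, beside 1.35% and 1.71% of all genes. Ets1 was higher at 29.3 ± 2.75 CPM (SD, n = 4) and 41.2 ± 3.02 CPM (SD, n = 5), a log2 fold change of 0.49 (SE 0.11, edgeR adjusted p = 0.0280). Fosl2 (-1.11), Fosb (-0.79), Nfkbiz (-1.39) and Atf3 (-1.52) were lower and kept the call under all 18 alternatives. Ets2 was lower by a log2 fold change of -0.56 (edgeR adjusted p = 0.0195). The Ets1 call was lost without wild type replicate 3 or 4 or Il17ra-/- replicate 1, 2, 3 or 5 (adjusted p 0.0536 to 0.0868). It was also lost with the replicate block (0.0705). The Ets2 call was lost without wild type replicate 4 or Il17ra-/- replicate 1, 2 or 3 (0.0576 to 0.0637). The lists were chosen with earlier results of these data known, so these counts are a description. The list medians were -0.34 for the transcription factors, -0.20 for the inhibitors and surface regulators, and -0.26 for the ADAMTS-like list. They were -0.14 for the shed proteins, 0.02 for the substrates and 0.07 for the partners, beside -0.0027 for all genes.

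The 30 members that were not tested complete the set: 10 MMP, 19 ADAM and 1 ADAMTS gene. Of these, 21 had 0 counts in all 9 libraries, including Mmp7, Mmp20 and Adamts13, the von Willebrand factor protease that liver cells make. Another 9 had a few counts, the highest being 48 for Adam32 and 43 for Adam30, both in wild type replicate 2. In each library 48 to 53 of the 78 members had at least 1 count. Wild type replicate 2 held the lowest value of the 9 libraries for 19 of the 48 tested members and the highest for 8, and Il17ra-/- replicate 5 held the highest for 11 and the lowest for 0.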

How the data were processed

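The deposited values are whole-number counts of read pairs, which the authors obtained per gene over its exons with featureCounts 1.6.0, unstranded, on GENCODE M21 (GRCm38), per the file headers. Reads that mapped to several places were not counted with these settings. Alignment used STAR, per the submitters' processing notes (version not given in the sources used here), and libraries came from TruSeq v2 RNA of integrity above 8, per the labels' protocols.

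Gene length in the deposited files gave FPKM from TMM-scaled CPM. Genes were filtered with filterByExpr (16039 left) and compared with edgeR 4.0.16 (quasi-likelihood, two-sided, R 4.3.3), genotype label as the only term, all 9 libraries, Benjamini-Hochberg over all genes. DESeq2 1.42.0, limma 3.58.1 voom, other scalings and filters, a replicate block and leaving out each library were alternatives. The exact permutation test used log2(CPM + 1). The script was tested on simulated data.

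Full values are given for called members, all TIMPs, the 10 tested members with the smallest p, the 3 with the highest mean FPKM in each family, and, of each list, the called genes and up to 2 with the smallest p. The gene families and the lists were chosen for study with earlier results of these data known, while the rule for single members used symbols only. Protein sequences are not used here.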

Additional observations from a re-analysis of the deposited data

Results flagged for a closer look

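Single libraries lay far from the rest of their group for 4 values, out of 60 gene-by-group sets examined, where chance marks about 1 in 20. Mmp14 was low in Il17ra-/- replicate 4, at 628.8 CPM beside 798 to 864 CPM in the other 4 libraries of that label. Tfpi2 was high in wild type replicate 2, at 56.49 CPM beside 21.6 to 25.0 CPM. Fbn2 was low in Il17ra-/- replicate 4, at 26.54 CPM beside 38.2 to 41.0 CPM. Atf3 was high in wild type replicate 2, at 2059 CPM beside 1496 to 1584 CPM.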

How the results depend on the processing

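Over all genes, 491 were called, 1066 with DESeq2 and 275 to 567 when 1 library was left out. Among the members, 1 was called, and 3 without the low-count filter, 6 with DESeq2, 0 with limma voom and 0 to 2 when 1 library was left out. A replicate block gave 363 calls over all genes and 1 among the members, Adamts4 in place of Timp4 (2.20, edgeR adjusted p = 0.0980). Libraries that share a number correlated at -0.0174 to 0.0557, other pairs at -0.0402 to 0.0365, and 2 of the 4 libraries labelled wild type correlated best with their own number, so the numbers were not taken to pair libraries. Without division by gene length the families' shares were 30.2% for MMP, 7.72% for ADAM and 20.02% for ADAMTS genes.

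Of the 19 members named by rule, 9 kept their direction and their side of the threshold under all 18 alternatives. Small log2 fold changes turned sign for 4 members: Mmp14 (-0.0265 to 0.166 without 1 library and lowest without wild type replicate 2, -0.0546 without both libraries that stand apart), Adamts2 (0.00871 with library totals), Adamts5 (-0.0202 without both libraries) and Adam19 (0.0241 with library totals, 0.0316 with the replicate block, and -0.183 to 0.0919 without 1 library, above 0 without wild type replicate 1 or 3 or Il17ra-/- replicate 5). The cause was not tested. Leaving out both libraries that stand apart was chosen after seeing the data. A count of 3 in a library is 0.0638 to 0.0984 CPM, the limit for the 21 members at 0 in every library.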
